A study of Mus musculus with 10 samples.

Results

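The nuclear-encoded subunits of the mitochondrial respiratory chain were followed in whole-transcript array data from the prostates of 10 male TRAMP mice. The genes were taken by symbol from the platform annotation: Ndufa, Ndufb, Ndufc, Ndufs and Ndufv genes without the Ndufaf assembly factors, Sdha to Sdhd, Cyc1, and genes starting with Uqcr, Cox4 to Cox8 or Atp5. This gave 83 genes among 19938, read by 108 probe sets with a single symbol, of which each gene kept the one with the highest mean. They comprised 34 genes of complex I, 4 of complex II, 9 of complex III, 19 of complex IV and 17 of complex V. Ndufa4 and Ndufa4l2, named after complex I, were counted with complex IV, where the Ndufa4 protein is now placed. A filter that left out the 25% of genes with the lowest mean removed 1 of the 83, the testis-type gene Cox7b2, and 82 were tested among 14953 genes. Cox7c and Ndufb4 were read only by probe sets that carry several symbols and were not used here.

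TRAMP mice carry a viral T antigen driven by the promoter of probasin, a secretory gene of prostate epithelium, and develop prostate tumours. Treatment began when the mice were 8 to 9 weeks old: 5 controls were given tap water, and for 5 others it held nicotine at 250 µg/ml, as the tartrate salt. How long the treatment lasted and the age at sampling are not given in the labels. Each mouse gave 1 array. No transgene-free or tumour-free group was used here, and a whole prostate holds many cell types, so fewer cells of a type and less RNA per cell cannot be told apart. Precision is limited by the 5 arrays in each group.

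The respiratory chain carries electrons from NADH (complex I) and succinate (complex II) through complex III and cytochrome c to oxygen at complex IV, and complex V, the ATP synthase, uses the resulting proton gradient. The mitochondrial genome encodes a few core subunits, and the nuclear genes described here encode the rest. Most are active in nearly every cell, while several complex IV subunits also exist in muscle, lung or testis forms encoded by separate genes. Normal prostate epithelium is known for exporting citrate rather than oxidising it, which makes its respiratory genes of interest in prostate tumours.

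Nicotine 1 and 3 stood apart from the other mice in cell type markers. Chga, a secretory granule gene of neuroendocrine cells, stood at 11.7 log2 units (nicotine 1) and 11.3 (nicotine 3), while the remaining 8 mice had values from 7.07 to 7.73. The water mean of 7 luminal secretory markers was 11.6 ± 0.14 (SD, n = 5), and these prostates had 10.5 and 6.86. The water mean of skeletal muscle markers was 7.47 ± 0.06 (SD, n = 5), with 9.93 for nicotine 1, and that of brown fat markers was 7.10 ± 0.08 (SD, n = 5), with 7.96 for nicotine 4. Seminal vesicle markers averaged between 12.1 and 13.2 in water 3, 4 and 5 and nicotine 5; the remaining 6 mice had means from 5.92 to 8.54. Counts and medians are therefore given for the 10 mice and for the 8 mice left when the arrays with Chga above 9 (nicotine 1 and 3) were set aside.

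The promoters of 67 of the 83 genes, from 250 bases before to 50 after the annotated start, were found in the RefSeq table of build GRCm38.p6. Both strands were searched for letters of factors known from work on respiratory genes, and a match is a description of the letters, not a site. The NRF1 letters GCATGCGC were in 10 of 67 promoters (14.9%), against 5.15% of the promoters of tested genes and 3.05% of all promoters. The ETS letters CCGGAAG were in 17 (25.4%), against 17% and 9.93%, the YY1 letters ATGGCGG in 10 (14.9%), against 8.00% and 4.69%, and the estrogen-related receptor letters TGACCTTG in 4 (5.97%), against 1.39% and 1.76%. The TATAAA letters were in 8 (11.9%), against 9.6% and 15.7%. YY1 letters were in 8 of 31 complex I promoters (Ndufa1, Ndufa5, Ndufa7, Ndufa9, Ndufb5, Ndufs4, Ndufs6 and Ndufs7) and in 2 of 15 of complex V. They were in none of the 3, 5 and 13 promoters of complexes II, III and IV, which are few beside the 8.00% of tested genes. A relation of the letters to the differences was not tested.

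The 4 promoters below, printed 5′ to 3′ on the strand of the gene with matches in capitals, set Ndufa11 and the general subunit gene Cox6a1 beside the muscle-type genes Cox7a1 and Cox8b, because nicotine and water mice were separate in Ndufa11 and the muscle-type genes were high in single nicotine mice. Ndufa11 (chr17:56717512-56717811, plus strand) and Cox6a1 (chr5:115348909-115349208, minus strand) each hold the NRF1 letters in both orientations, overlapping, and Cox6a1 also holds the ETS letters. Most promoters of their complexes lacked the NRF1 letters, which were in 3 of 31 of complex I and in 1 of 13 of complex IV (Cox6a1). Cox8b (chr7:140900397-140900696, minus strand) holds TATAAA and Cox7a1 (chr7:30183921-30184220, plus strand) none of the 5 motifs. The TATAAA of Cox8b begins at position 5 after the annotated start, not before it.
Ndufa11: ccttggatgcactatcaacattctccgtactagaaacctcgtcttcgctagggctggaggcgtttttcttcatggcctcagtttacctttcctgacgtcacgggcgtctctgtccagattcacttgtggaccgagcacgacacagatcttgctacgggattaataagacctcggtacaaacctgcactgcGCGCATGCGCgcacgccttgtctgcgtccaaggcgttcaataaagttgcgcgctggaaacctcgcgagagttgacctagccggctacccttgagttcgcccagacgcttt
Cox6a1: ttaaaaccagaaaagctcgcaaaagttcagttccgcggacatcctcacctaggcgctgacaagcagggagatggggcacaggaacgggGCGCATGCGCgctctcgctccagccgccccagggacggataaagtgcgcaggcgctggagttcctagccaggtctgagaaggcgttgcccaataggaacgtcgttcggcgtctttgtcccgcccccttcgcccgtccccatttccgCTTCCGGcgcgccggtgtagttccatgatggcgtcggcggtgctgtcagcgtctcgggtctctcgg
Cox7a1: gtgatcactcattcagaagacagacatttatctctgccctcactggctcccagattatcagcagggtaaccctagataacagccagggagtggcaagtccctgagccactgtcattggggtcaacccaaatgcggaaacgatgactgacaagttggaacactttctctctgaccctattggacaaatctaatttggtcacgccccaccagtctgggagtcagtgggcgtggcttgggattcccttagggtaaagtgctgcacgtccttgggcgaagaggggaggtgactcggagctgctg
Cox8b: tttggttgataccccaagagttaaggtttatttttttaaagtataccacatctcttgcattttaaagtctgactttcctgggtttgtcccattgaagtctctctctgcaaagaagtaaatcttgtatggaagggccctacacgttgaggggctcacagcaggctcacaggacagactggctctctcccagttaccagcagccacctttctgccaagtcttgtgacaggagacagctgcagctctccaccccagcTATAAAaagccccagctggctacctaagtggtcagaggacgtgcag

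The first comparison asked whether the subunit genes differ between nicotine and water. Taken over the 82 tested genes, levels in nicotine mice lay slightly above those in water mice: the median log2 difference, nicotine minus water, was 0.06, with 58 genes positive (70.7%) where 50.7% of all tested genes were. The median difference over all 14953 genes was 0.00. None of the 82 passed the limma test at an adjusted p of 0.05, as was so for all genes (0 of 14953, 0%), the adjusted p being 0.458 or more. Of the 82, 13 were higher at an unadjusted p under 0.05 (15.9%) and 1 was lower (1.22%), where the shares over all genes were 4.28% and 5.84%. The count of 13 was 8 (9.76%) without water 3, where the share of all genes was 1.89%, and 8 (9.76%) without nicotine 1, where it was 2.41%. In 7 genes every nicotine mouse had a higher value than every water mouse (8.54%, against 2.02% of all genes) and in 0 genes the reverse held (against 2.88%).

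In the 8 mice the median difference was 0.08, with 63 of 82 genes positive (76.8%, against 53.5% of all genes). Again none passed at adjusted p under 0.05 (0% of all genes), and the smallest adjusted p of a subunit gene was 0.117 by limma. At an unadjusted p under 0.05, 15 were higher (18.3%, against 6.01% of all genes) and 0 were lower (against 8.69%). The groups did not overlap in 17 genes in the higher direction (20.7%, against 4.12%) and in 1, Atp5c1, in the lower (1.22%, against 6.47%). With array weights, which give less weight to aberrant arrays, 12 subunit genes passed in the 10 mice, all higher, where 2.84% of all genes were called higher, and 10 passed in the 8 mice, where 3.11% were. The 12 were Ndufa2, Ndufa5, Ndufa7, Ndufa11, Ndufb8, Uqcr10, Uqcr11, Uqcrq, Atp5k, Atp5l, Atp5mpl and Atp5o, and the 10 were these without Ndufa5 and Uqcrq.

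Each mouse's position was summarised as the median deviation of the genes from their water means. For all 82 genes it was -0.02, 0.00, -0.01, 0.06 and -0.01 in water mice 1 to 5 and 0.12, 0.04, 0.04, 0.08 and 0.09 in nicotine mice 1 to 5. Water 4 lay within the nicotine range and the other 4 water mice below it. In nicotine 4, 42 of 82 subunit genes were above every water mouse (51.2%, against 15.6% of all tested genes) and 1 was below (1.22%, against 18.4%). The corresponding shares above were 50% in nicotine 1 (against 34.1%), 30.5% in nicotine 2 (against 23.0%), 42.7% in nicotine 3 (against 38.0%) and 41.5% in nicotine 5 (against 17.5%). Shares below every water mouse were 24.4% in nicotine 1 (against 38.6%) and 28% in nicotine 3 (against 42.2%). In nicotine 2 and 5 they were 11% (against 21.7%) and 9.76% (against 19.9%). The highest shares above were in nicotine 4, the mouse high in brown fat markers, and nicotine 1, the mouse high in skeletal muscle markers. The 8 mice still include nicotine 4. The part of these tissues in the shares was not tested.

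The differences were small in size even in the prostates with neuroendocrine markers. In nicotine 3, 25% of all tested genes were more than 1 log2 unit from their water mean, and 1 of 82 subunit genes was (Ndufa1, lower). In nicotine 1 the shares were 10.1% of all genes and 1 of 82 subunit genes (Cox8b, higher). The median SD of a subunit gene was 0.07 in water mice and 0.13 in nicotine mice, against 0.10 and 0.26 over all genes.

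**Figure D1:**
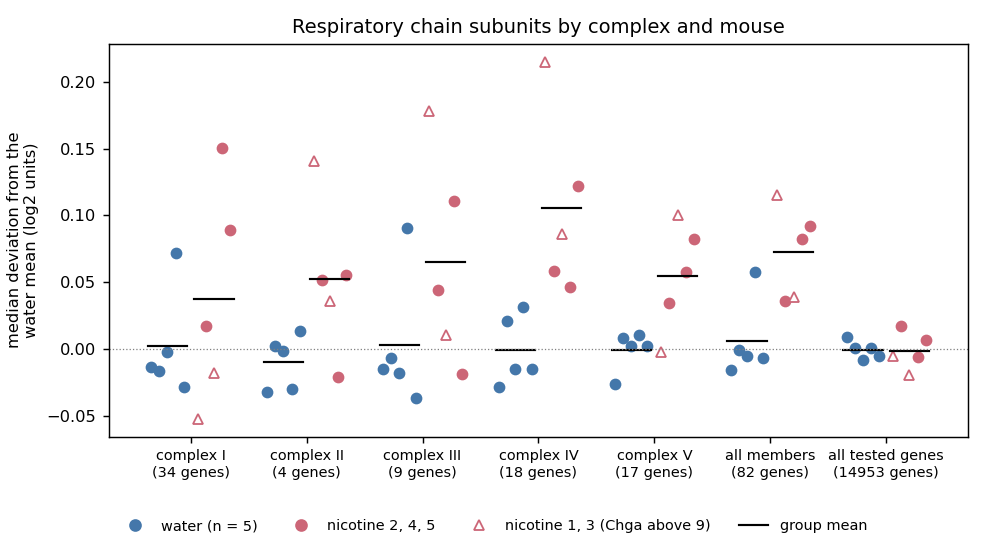
Median deviation of the tested genes of each complex from their water means (log2 units) in each mouse; points are mice, bars group means, and open triangles nicotine 1 and 3, the arrays with Chga above 9. In complex IV the 5 nicotine mice lie above all 5 water mice, while in complex I nicotine 1 and 3 lie at -0.05 and -0.02.

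Set side by side, the complexes differed in how far nicotine mice lay from water mice, with no test made between them. The median difference was 0.01 in complex I (19 of 34 genes positive), 0.07 in complex II (3 of 4), 0.13 in complex III (7 of 9), 0.10 in complex IV (17 of 18) and 0.06 in complex V (12 of 17). In the 8 mice the medians were 0.09 (26 of 34), 0.02 (2 of 4), 0.08 (5 of 9), 0.08 (18 of 18) and 0.07 (12 of 17). Complex IV thus had the most even direction in both fits, with 7 muscle, lung or testis forms among its 18 genes. At an unadjusted p under 0.05, 3 of the 18 were higher in the 10 mice (16.7%, against 4.28% of all genes). In the 8 mice 0 of the 18 were at that p (against 6.01% of all genes higher). Complex I changed most when nicotine 1 and 3 were set aside. The complex I median also turned to -0.01 when nicotine 4 was left out. The per-mouse median of complex IV was -0.03, 0.02, -0.01, 0.03 and -0.01 in water mice 1 to 5 and 0.22, 0.06, 0.09, 0.05 and 0.12 in nicotine mice 1 to 5. That of complex I was -0.01, -0.02, 0.00, 0.07 and -0.03 in the water group and -0.05, 0.02, -0.02, 0.15 and 0.09 in the nicotine group.

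**Figure D2:**
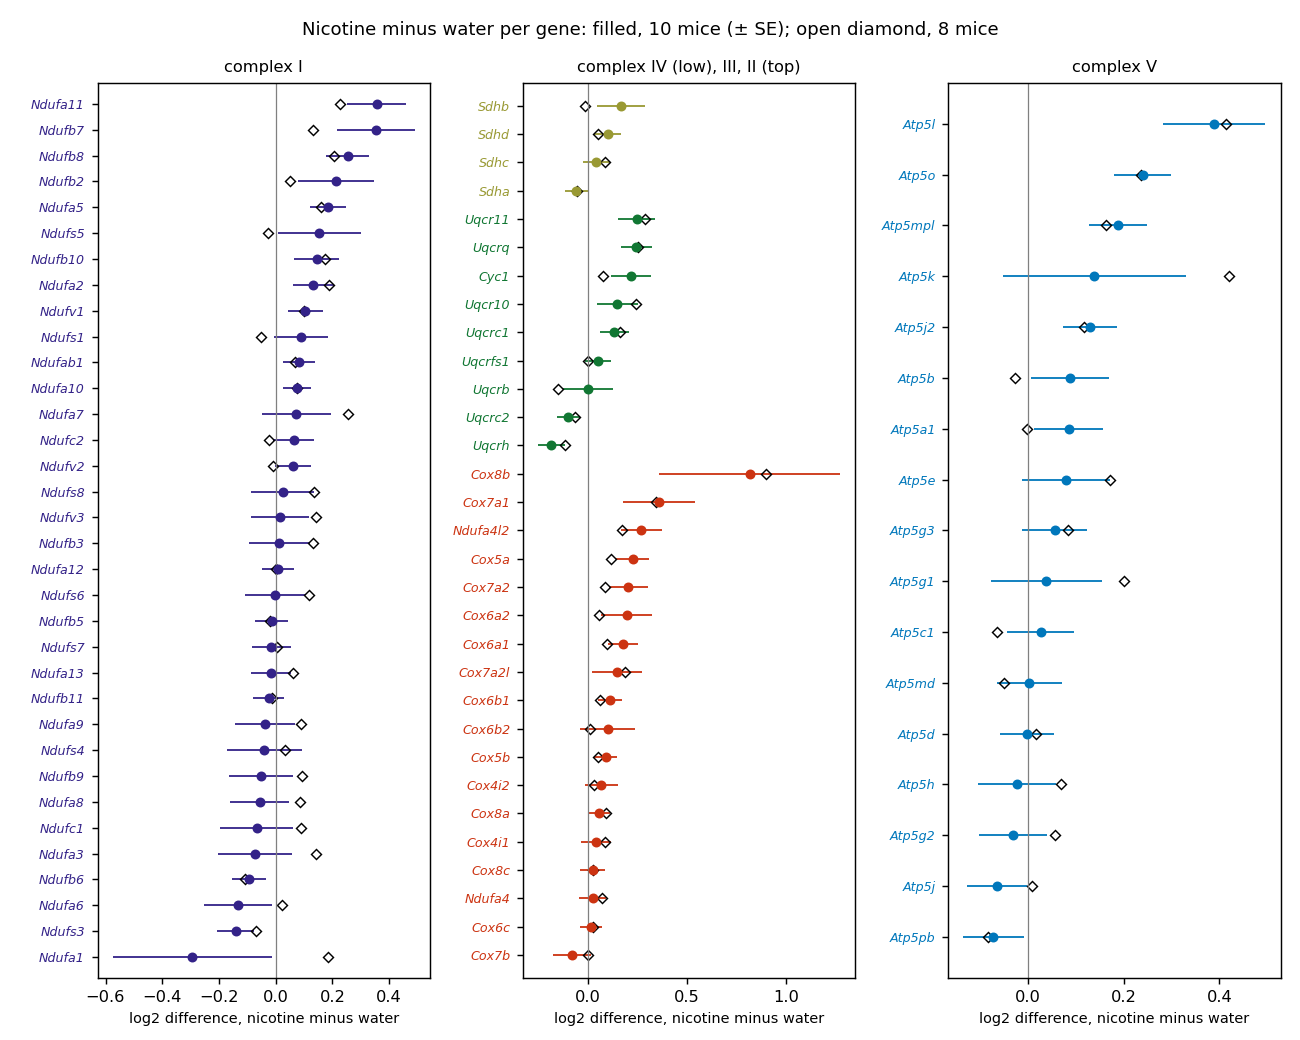
Log2 difference, nicotine minus water, of each of the 82 tested genes; filled points with SE are the 10 mice, open diamonds the 8 mice without nicotine 1 and 3. The complex IV points lie at or right of 0 in both fits except Cox7b in the 10 mice (-0.08), and the widest gap between the fits is that of Ndufa1 (-0.29 and 0.18).

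Complex I, the NADH dehydrogenase, has core subunits that carry out electron transfer and accessory subunits around them. The 6 tested core genes had differences between -0.14 (Ndufs3) and 0.11 (Ndufv1), and 0 had an unadjusted p under 0.05. The 28 accessory genes ranged from -0.29 (Ndufa1) to 0.36 (Ndufa11), with 15 positive and 4 at an unadjusted p under 0.05. In the 8 mice the core genes had a median of -0.0034, with 3 of 6 positive and 0 at that p. The accessory genes had a median of 0.09 there, with 23 of 28 positive and 6 at that p. Of all 14953 tested genes, 50.7% were positive in the 10 mice and 53.5% in the 8. At that p, in either direction, were 1514 of them in the 10 mice and 2198 in the 8. These numbers also stand beside the counts for the other complexes below. No test between core and accessory genes was made. The accessory genes' median in the 10 mice was 0.01 and that of the core genes 0.04. The 4 accessory genes at that p in the 10 mice were Ndufa11, Ndufa5, Ndufb7 and Ndufb8, all higher in nicotine mice.

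Ndufa11, an accessory subunit of the membrane arm whose promoter is printed above, was 9.99, 9.90, 9.93, 10.11 and 10.06 log2 units in the water group (mice 1 to 5) and 10.71, 10.16, 10.39, 10.22 and 10.29 in the nicotine group 1 to 5. The groups did not overlap, and nicotine 1 was the highest. The difference was 0.36 ± 0.10 (SE, adjusted p = 0.458 by limma), a fold of 1.28, and 0.23 ± 0.06 (SE, adjusted p = 0.155) in the 8 mice. Its other probe set also had groups that did not overlap, with a difference of 0.25.

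Ndufb8, an accessory subunit of the membrane arm, was 9.50, 9.49, 9.46, 9.54 and 9.44 in the water group and 9.79, 9.49, 9.84, 9.82 and 9.77 in the nicotine group. Nicotine 2 lay within the water range and the other 4 nicotine mice above it. The difference was 0.26 ± 0.08 (SE, adjusted p = 0.458 by limma) and 0.21 ± 0.08 (SE, adjusted p = 0.240) in the 8 mice. Ndufa5, an accessory subunit of the peripheral arm, was 8.34, 8.35, 8.40, 8.34 and 8.45 in the water group and 8.49, 8.59, 8.71, 8.47 and 8.55 in the nicotine group. The groups did not overlap, with water 5 just below nicotine 4, and the difference was 0.18 ± 0.06 (SE, adjusted p = 0.458 by limma).

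A few genes were chosen after their values were seen, to show how nicotine 1 and 3 entered the comparison. Ndufb7 was 9.08, 8.95, 9.11, 9.16 and 9.16 in the water group and 9.84, 9.19, 9.72, 9.22 and 9.27 in the nicotine group. Its groups did not overlap, with nicotine 1 and 3 far above the other 3. The difference was 0.35 ± 0.14 (SE, adjusted p = 0.458 by limma) and 0.13 ± 0.06 (SE, adjusted p = 0.346) in the 8 mice.

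Ndufa1, a small membrane subunit, went the other way: it was 9.31, 9.15, 9.25, 9.44 and 9.28 in the water group and 8.39, 9.27, 8.16, 9.67 and 9.48 in the nicotine group. Nicotine 1 and 3 lay below every water mouse and nicotine 4 and 5 above. The difference was -0.29 ± 0.28 (SE) in the 10 mice and 0.18 ± 0.09 (SE) in the 8, with adjusted p of 0.550 and 0.387 by limma, so its direction turned with these arrays. Ndufa7 was 9.61, 9.49, 9.57, 9.72 and 9.55 in the water group and 9.50, 9.81, 9.27, 9.88 and 9.84 in the nicotine group. In the 8 mice its groups did not overlap, with a difference of 0.26 ± 0.06 (SE, adjusted p = 0.117 by limma), the smallest adjusted p of the 82 genes there, and in the 10 mice the difference was 0.07 ± 0.12 (SE). The low values came with the arrays high in neuroendocrine markers (9 of 9 markers above every water mouse in nicotine 3 and 8 of 9 in nicotine 1), and the part of those cells in the result was not tested.

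**Figure D3:**
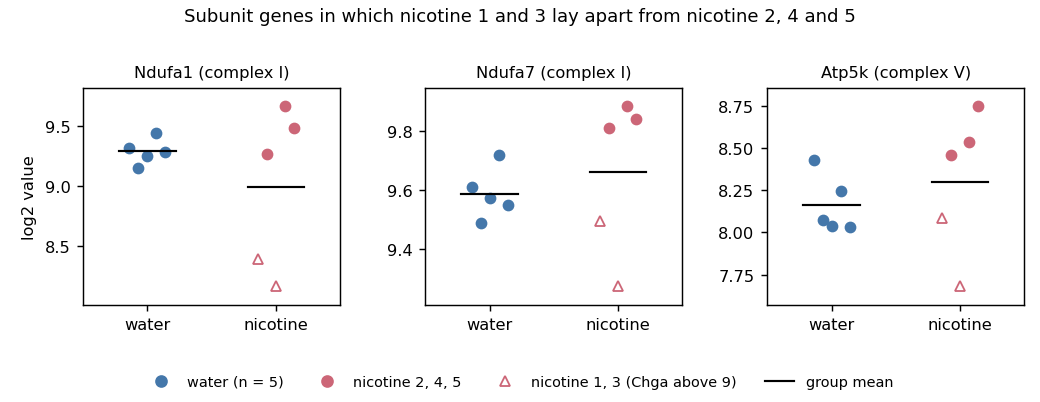
Log2 values of Ndufa1, Ndufa7 and Atp5k in each mouse, with group means as bars and open triangles for nicotine 1 and 3. In nicotine 3 the 3 genes are at 8.16, 9.27 and 7.68, below every water mouse, while nicotine 4 and 5 are above every water mouse.

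Complex II, the succinate dehydrogenase of the citric acid cycle, had no gene at an unadjusted p under 0.05 in either set of mice. Sdhd, a membrane anchor, was 10.08, 10.10, 10.09, 10.13 and 9.96 in the water group and 10.33, 10.17, 10.16, 10.04 and 10.15 in the nicotine group. Sdhb, the iron-sulfur subunit, was 10.02, 10.002, 10.15, 9.99 and 10.29 in the water group and 10.53, 10.10, 10.52, 10.01 and 10.12 in the nicotine group. Sdha, the flavoprotein, was 11.11, 11.20, 11.15, 11.18 and 11.25 in the water group and 11.20, 11.09, 11.02, 11.16 and 11.11 in the nicotine group. The groups overlapped in all of these. The differences were 0.10 ± 0.07 (SE) for Sdhd, 0.17 ± 0.12 (SE) for Sdhb and -0.06 ± 0.06 (SE) for Sdha, and in the 8 mice they were 0.05 ± 0.06 (SE), -0.01 ± 0.08 (SE) and -0.05 ± 0.05 (SE). The adjusted p of these 3 genes ran from 0.469 to 0.564 by limma in the 10 mice. Sdhc, the other membrane anchor, differed by 0.04 ± 0.07 (SE) and by 0.09 ± 0.07 (SE) in the 8 mice.

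Complex III passes electrons from ubiquinol to cytochrome c. Its small subunits showed both directions. Uqcrq was 10.22, 10.11, 10.11, 10.47 and 10.26 in the water group and 10.54, 10.51, 10.38, 10.49 and 10.46 in the nicotine group. Water 4 reached the nicotine range and the other 4 water mice lay below it. The difference was 0.24 ± 0.08 (SE, adjusted p = 0.458 by limma), and 0.25 ± 0.08 (SE, adjusted p = 0.187) in the 8 mice.

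Uqcr11 was 10.28, 10.23, 10.27, 10.34 and 10.31 in the water group and 10.65, 10.78, 10.27, 10.39 and 10.55 in the nicotine group. Nicotine 3 lay within the water range and the others above it, and without nicotine 1 and 3 the difference moved from 0.25 ± 0.09 (SE, adjusted p = 0.458 by limma) to 0.29 ± 0.08 (SE, adjusted p = 0.146). Uqcrh, the hinge subunit near cytochrome c1, was 11.76, 11.75, 11.72, 11.84 and 11.68 in the water group and 11.45, 11.54, 11.49, 11.69 and 11.68 in the nicotine group. It was the only one of the 82 with a negative difference at an unadjusted p under 0.05, -0.18 ± 0.07 (SE, adjusted p = 0.458 by limma), and nicotine 4 lay within the water range, above water 5, while the other 4 nicotine mice lay below it. In the 8 mice the difference was -0.12 ± 0.06 (SE, adjusted p = 0.389). Uqcr10, chosen after its values were seen, was 9.89, 9.67, 9.65, 9.91 and 9.68 in the water group and 9.94, 9.91, 9.59, 10.05 and 10.05 in the nicotine group. Nicotine 3 was the lowest of all mice, and the difference was 0.15 ± 0.10 (SE, adjusted p = 0.473 by limma) in the 10 mice and 0.24 ± 0.08 (SE, adjusted p = 0.185) in the 8. The 4 catalytic and core genes (Cyc1, Uqcrfs1, Uqcrc1 and Uqcrc2) ranged from -0.10 (Uqcrc2) to 0.22 (Cyc1), with 0 at an unadjusted p under 0.05; in the 8 mice they ranged from -0.07 (Uqcrc2) to 0.16 (Uqcrc1), with 1 at that p.

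Complex IV, cytochrome c oxidase, contains subunits made in general and in tissue-restricted forms, and these were read separately. Of the 11 general genes, 10 had positive differences, between -0.08 (Cox7b) and 0.23 (Cox5a), and in the 8 mice all 11 had, between 0.0010 (Cox7b) and 0.19 (Cox7a2l). Cox5a was 10.17, 10.11, 10.11, 10.25 and 10.18 in the water group and 10.63, 10.24, 10.48, 10.34 and 10.26 in the nicotine group. Nicotine 2 overlapped water 4 and the other 4 nicotine mice lay above all water mice. The difference was 0.23 ± 0.08 (SE, adjusted p = 0.458 by limma) and 0.12 ± 0.05 (SE, adjusted p = 0.355) in the 8 mice.

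Cox6a1, the general form of its subunit, was 11.23, 11.19, 11.18, 11.30 and 11.07 in the water group and 11.56, 11.24, 11.42, 11.31 and 11.31 in the nicotine group. The difference was 0.18 ± 0.08 (SE, adjusted p = 0.458 by limma) and 0.10 ± 0.06 (SE, adjusted p = 0.499) in the 8 mice. Its muscle counterpart Cox6a2 was 7.67, 7.79, 7.63, 7.77 and 7.59 in the water group and 8.39, 7.78, 7.80, 7.72 and 7.73 in the nicotine group. Cox6a2 was far above the water mice in nicotine 1, just above their highest in nicotine 3 and within their range in the others. The difference of 0.19 ± 0.13 (SE) was 0.07 without nicotine 1 and 0.05 ± 0.06 (SE) in the 8 mice.

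Cox7a2, the general form, was 10.66, 10.73, 10.67, 10.84 and 10.63 in the water group and 10.92, 10.79, 11.26, 10.75 and 10.83 in the nicotine group. It was highest in nicotine 3, and the difference of 0.20 ± 0.10 (SE) was 0.12 without that mouse and 0.09 ± 0.06 (SE) in the 8 mice. The muscle form Cox7a1 was 7.84, 7.99, 7.71, 7.99 and 7.86 in the water group and 8.48, 7.82, 8.03, 8.84 and 8.01 in the nicotine group. It was highest in nicotine 4, then nicotine 1, with nicotine 2 inside the water range. The difference of 0.36 ± 0.18 (SE, adjusted p = 0.458 by limma) was 0.21 without nicotine 4.

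Cox8b, the muscle and brown fat form of its subunit, had the largest difference of the 82 genes. It was 6.72, 7.06, 6.87, 6.98 and 6.82 in the water group and 8.36, 6.96, 6.80, 9.36 and 7.06 in the nicotine group, so that nicotine 4 and 1 were high and the other 3 lay within the water range. The difference was 0.82 ± 0.46 (SE, adjusted p = 0.458 by limma), a fold of 1.76, and 0.40 without nicotine 4. Its general counterpart Cox8a was 12.04, 12.02, 12.02, 12.02 and 11.91 in the water group and 12.04, 12.06, 11.98, 12.08 and 12.14 in the nicotine group, a difference of 0.06 ± 0.06 (SE), and of 0.09 ± 0.05 (SE) in the 8 mice, where its groups did not overlap. The SD over nicotine mice was 1.11 for Cox8b and 0.06 for Cox8a.

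The high values of the muscle forms came with markers of other tissues. In nicotine 1 all 13 skeletal muscle markers were above every water mouse and more than 1 log2 unit above the water mean; Ckm, the muscle creatine kinase, was 11.2 against at most 8.59. In nicotine 4, 6 of 9 brown fat and fat markers were above every water mouse. Ucp1, the uncoupling protein that defines brown fat, was 8.09 there and 5.88 to 6.24 in all others, Cidea was 6.88 against at most 5.82 in water mice, and Fabp4 was 10.2 against at most 8.55. Elovl3, Pparg and Plin4 lay within the water range in nicotine 4. The skeletal muscle mean of nicotine 4, 7.52, was within the water range, and Ucp1 of nicotine 1 was 6.15. Cox8b and Cox7a1 were above every water mouse in both of these mice, and Cox6a2 in nicotine 1 but not in nicotine 4. The part of these tissues in the difference between the groups was not tested.

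**Figure D4:**
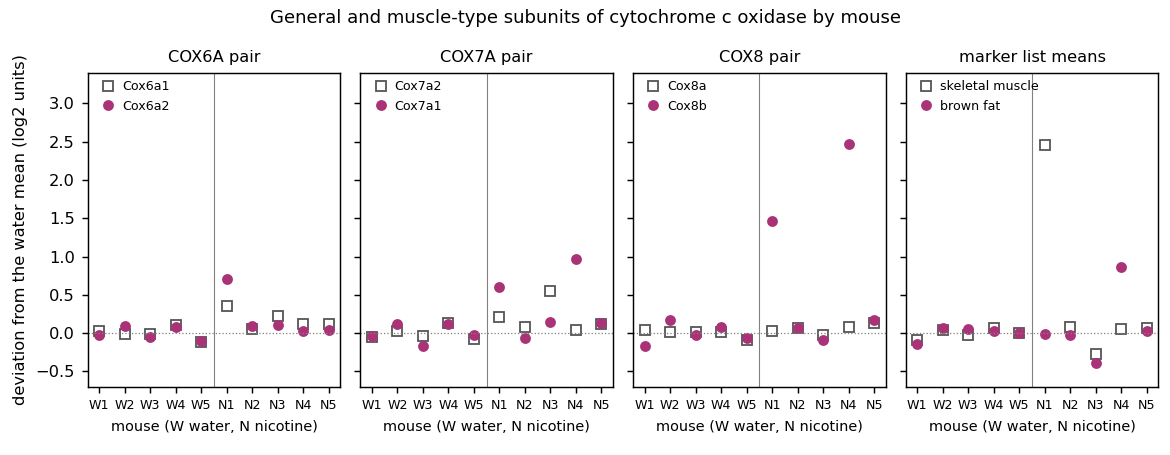
Deviation from the water mean (log2 units) in each mouse for the general (open squares) and muscle-type (filled) genes of 3 cytochrome c oxidase subunits, and, in the last panel, for the means of 13 skeletal muscle (open squares) and 9 brown fat markers (filled). Cox8b and Cox7a1 stand out in nicotine 1 and 4, Cox6a2 in nicotine 1, skeletal muscle markers in nicotine 1 and brown fat markers in nicotine 4.

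The remaining paired forms varied little between the groups. Cox4i1 was 11.29, 11.29, 11.27, 11.33 and 11.32 in the water group and 11.45, 11.42, 11.10, 11.31 and 11.43 in the nicotine group, and its lung form Cox4i2 was 7.37, 7.77, 7.74, 7.70 and 7.64 in the water group and 7.77, 7.65, 7.76, 7.64 and 7.74 in the nicotine group. Both had groups that overlapped, with differences of 0.04 ± 0.07 (SE) and 0.07 ± 0.08 (SE), and of 0.08 ± 0.05 (SE) and 0.03 ± 0.09 (SE) in the 8 mice. Cox6b1 was 11.72, 11.56, 11.62, 11.64 and 11.62 in the water group and 11.85, 11.72, 11.78, 11.65 and 11.71 in the nicotine group, a difference of 0.11 ± 0.06 (SE), and of 0.06 ± 0.05 (SE) in the 8 mice.

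The testis forms did not separate the groups. Cox6b2 was 7.53, 7.38, 7.26, 7.16 and 7.005 in the water group and 7.74, 7.32, 7.26, 7.05 and 7.46 in the nicotine group, a difference of 0.10 ± 0.14 (SE), and of 0.01 ± 0.12 (SE) in the 8 mice. Cox8c was 7.16, 7.39, 7.24, 7.13 and 7.23 in the water group and 7.28, 7.24, 7.23, 7.30 and 7.22 in the nicotine group, a difference of 0.02 ± 0.06 (SE). Cox7b2, left out by the filter, was 5.18, 5.31, 5.24, 5.26 and 5.12 in the water group and 5.25, 5.35, 5.65, 5.16 and 5.26 in the nicotine group.

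Cox7b was 12.27, 12.31, 12.32, 12.34 and 12.35 in the water group and 11.89, 12.28, 12.35, 12.41 and 12.28 in the nicotine group. It was low in nicotine 1 alone, and its difference of -0.08 ± 0.10 (SE) was 0.01 without that mouse. Cox7a2l, which joins complexes III and IV in supercomplexes, was 9.92, 9.46, 9.62, 9.64 and 9.79 in the water group and 10.06, 9.95, 9.48, 9.73 and 9.94 in the nicotine group, with a difference of 0.15 ± 0.13 (SE). The groups overlapped through nicotine 3 and 4.

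Ndufa4 was 10.40, 10.35, 10.41, 10.41 and 10.47 in the water group and 10.23, 10.45, 10.49, 10.44 and 10.54 in the nicotine group, a difference of 0.02 ± 0.07 (SE), and of 0.07 ± 0.05 (SE) in the 8 mice. Its relative Ndufa4l2, known as a gene induced by low oxygen, was 6.95, 7.19, 6.83, 7.08 and 6.92 in the water group and 7.47, 7.35, 7.36, 6.99 and 7.16 in the nicotine group. Nicotine 1, 2 and 3 lay above all water mice. The difference was 0.27 ± 0.11 (SE, adjusted p = 0.458 by limma), and 0.17 ± 0.10 (SE, adjusted p = 0.445) in the 8 mice.

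Complex V, the ATP synthase, held 4 of the 7 genes whose groups did not overlap in the 10 mice. Atp5o, the peripheral stalk subunit that links the head to the membrane part, was 10.76, 10.69, 10.66, 10.77 and 10.54 in the water group and 10.91, 10.88, 10.94, 10.93 and 10.94 in the nicotine group. The 5 nicotine mice were close together (SD 0.03) and all above the water mice. The difference was 0.24 ± 0.06 (SE, adjusted p = 0.458 by limma), a fold of 1.18, with the same size in the 8 mice (0.24 ± 0.06, SE, adjusted p = 0.139), and nicotine 1 and 3 lay with the rest.

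Atp5l, a small membrane subunit (subunit g), was 9.94, 9.40, 9.61, 9.61 and 9.86 in the water group and 10.13, 10.01, 9.94, 10.07 and 10.21 in the nicotine group. The lowest nicotine mouse and the highest water mouse were nearly equal. The difference was 0.39 ± 0.11 (SE, adjusted p = 0.458 by limma), a fold of 1.31. Its 6 probe sets gave differences between 0.30 and 0.40, and the groups did not overlap in 3 of them; such probe sets can share signal with near-identical gene copies.

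Atp5mpl, a proteolipid of the membrane part, was 10.13, 10.12, 10.18, 10.17 and 10.15 in the water group and 10.31, 10.34, 10.44, 10.20 and 10.40 in the nicotine group, with a difference of 0.19 ± 0.06 (SE, adjusted p = 0.458 by limma). Atp5j2 (subunit f), chosen after its values were seen, was 11.44, 11.56, 11.50, 11.60 and 11.59 in the water group and 11.73, 11.71, 11.64, 11.63 and 11.62 in the nicotine group, with a difference of 0.13 ± 0.06 (SE, adjusted p = 0.458 by limma). Both had groups that did not overlap. Atp5k (subunit e), also chosen after its values were seen, was 8.43, 8.07, 8.04, 8.25 and 8.03 in the water group and 8.08, 8.46, 7.68, 8.54 and 8.75 in the nicotine group. Nicotine 2, 4 and 5 lay above every water mouse and nicotine 1 and 3 did not, and the difference was 0.14 ± 0.19 (SE, adjusted p = 0.674 by limma) in the 10 mice and 0.42 ± 0.10 (SE, adjusted p = 0.129) in the 8.

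**Figure D5:**
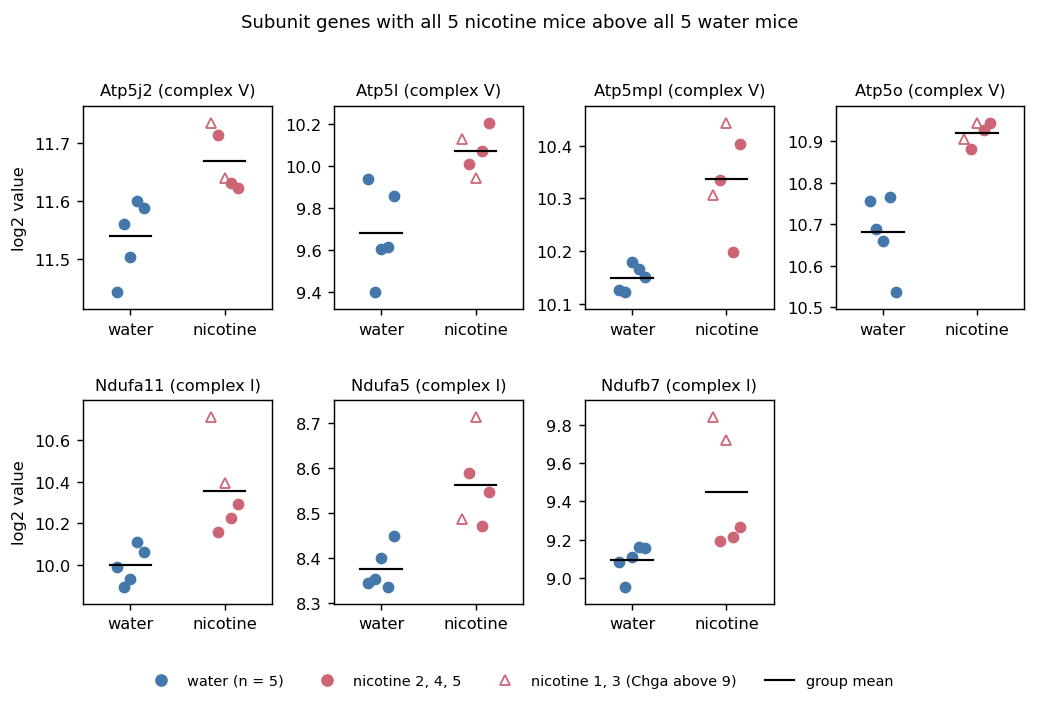
Log2 values of the 7 genes in which the lowest nicotine mouse exceeded the highest water mouse, with group means as bars and open triangles for nicotine 1 and 3. The axes differ between panels; in Ndufb7 nicotine 1 and 3 are at 9.84 and 9.72, and in Atp5o all nicotine mice are between 10.88 and 10.94.

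By the parts of the ATP synthase, the 5 small membrane genes had differences between 0.00 (Atp5md) and 0.39 (Atp5l), with 3 at an unadjusted p under 0.05, and between -0.05 (Atp5md) and 0.42 (Atp5k) in the 8 mice, again with 3. The 5 genes of the catalytic head and central stalk (Atp5a1, Atp5b, Atp5c1, Atp5d and Atp5e) lay between -0.0016 (Atp5d) and 0.09 (Atp5b), and between -0.06 (Atp5c1) and 0.17 (Atp5e) in the 8 mice, with 0 at that p in both. The c-ring genes Atp5g1, Atp5g2 and Atp5g3 lay between -0.03 and 0.06 in the 10 mice, and all 3 were positive in the 8 mice, between 0.06 and 0.20, with groups that did not overlap in Atp5g1 and Atp5g3. Of the 4 peripheral stalk genes Atp5o alone was positive in the 10 mice, and in the 8 mice 3 were, with Atp5h at 0.07, Atp5j at 0.0074 and Atp5pb at -0.08. Of all 14953 tested genes, 1514 were at an unadjusted p under 0.05 in the 10 mice and 2198 in the 8, in either direction. In the 8 mice 4.12% of all genes had groups that did not overlap in the higher direction. No test of the difference between these parts was made.

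Other genes of mitochondrial respiration were read from lists chosen with earlier results of these data known, and 0 of their genes passed at adjusted p under 0.05 by limma in either set of mice. Of 13 complex I assembly factors, 7 were positive in each set of mice, with median differences of 0.02 in the 10 mice and 0.01 in the 8. The assembly factor gene Tmem126b had the smallest p, with a mean of 8.74 ± 0.10 (SD, n = 5) in water mice and 8.37 ± 0.23 (SD, n = 5) in nicotine mice. Its difference was -0.37 ± 0.11 (SE, adjusted p = 0.458 by limma) and -0.21 ± 0.07 (SE, adjusted p = 0.185) in the 8 mice.

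Of 27 assembly factors of complexes II to V, 15 were positive in the 10 mice and 18 in the 8, with medians of 0.01 and 0.03. Among them Uqcc2, needed for complex III, differed by 0.43 ± 0.14 (SE) and by 0.24 ± 0.09 (SE) in the 8 mice. Atpaf2, needed for the ATP synthase head, differed by 0.15 ± 0.06 (SE) and by 0.18 ± 0.06 (SE) in the 8 mice. Both had an adjusted p of 0.458 by limma in the 10 mice.

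Regulators of respiratory genes numbered 16, of which 8 were positive in the 10 mice and 5 in the 8, with medians of 0.00 and -0.01. Their differences ran from -0.31 to 0.22 in the 10 mice. At an unadjusted p under 0.05, 2 were higher and 0 lower in the 10 mice (4.28% and 5.84% of all genes). In the 8 mice 1 was higher and 3 were lower (6.01% and 8.69% of all genes). Pprc1 and Polrmt had the smallest p in the 10 mice. Pprc1, a coactivator, differed by 0.19 ± 0.07 (SE) and by 0.20 ± 0.08 (SE) in the 8 mice. Polrmt, the mitochondrial RNA polymerase, differed by 0.15 ± 0.06 (SE) and by 0.09 ± 0.05 (SE) in the 8 mice. Of 12 citric acid cycle genes 6 were positive in each set of mice, with medians of -0.01 in the 10 mice and 0.02 in the 8. Their differences ran from -0.80 to 0.58 in the 10 mice and from -0.10 to 0.11 in the 8. Mdh2 and Idh3a had the smallest p in the 10 mice. Mdh2 differed by 0.20 ± 0.08 (SE) and Idh3a by 0.58 ± 0.32 (SE), with 0.11 ± 0.07 (SE) and 0.06 ± 0.08 (SE) in the 8 mice. Of 12 electron carrier and ubiquinone genes 4 were positive in each set. Pdss2 differed by -0.22 ± 0.07 (SE) and Coq6 by 0.19 ± 0.07 (SE), with -0.18 ± 0.05 (SE) and 0.13 ± 0.07 (SE) in the 8 mice.

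Of 12 outer membrane and import genes 8 were positive in each set, with medians of 0.08 in the 10 mice and 0.02 in the 8. The import genes Timm50 (0.33 ± 0.10, SE) and Tomm40 (0.18 ± 0.06, SE) had the smallest p, and in the 8 mice they were at 0.19 ± 0.06 (SE) and 0.15 ± 0.06 (SE). Of the nucleotide and phosphate carrier list 4 genes were tested, 2 of them positive in each set. The ATP synthase inhibitor gene Atpif1 differed by 0.09 ± 0.06 (SE) and by 0.06 ± 0.05 (SE) in the 8 mice, and the nucleotide carrier gene Slc25a4 by 0.34 ± 0.24 (SE) and by 0.03 ± 0.10 (SE). Among mitochondrially encoded subunits 2 were tested. COX2 differed by -0.03 ± 0.06 (SE) and ND3 by -0.06 ± 0.08 (SE), with -0.05 ± 0.06 (SE) and -0.04 ± 0.08 (SE) in the 8 mice, all smaller than their SE.

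Seminal vesicle marker means varied between mice, from 7.21 to 13.2 in the water group and from 5.92 to 12.5 in the nicotine group. With this mean as a covariate, 66 of 82 subunit genes were positive (80.5%, against 50.9% of all genes). Of the 82, 9 were at an unadjusted p under 0.05, all higher (11%, against 1.38% of all genes), and 0 passed. Proliferation markers were higher in nicotine mice, with at least 8 of 9 above every water mouse in each nicotine mouse. Their means ran from 9.19 to 9.37 in water mice and from 9.60 to 11.2 in nicotine mice. Of all tested genes, 15.6% (nicotine 4) to 38.0% (nicotine 3) were above every water mouse. In the same mice 18.4% and 42.2% were below, the lowest and highest shares. Fibroblast markers were lower, with means from 9.74 to 10.1 in the water group and from 8.40 to 9.44 in the nicotine group, and in each nicotine mouse 4 to 7 of 7 were below every water mouse. Macrophage marker means ran from 8.01 to 8.81 in the water group and from 7.45 to 8.17 in the nicotine group, with 5 of 6 below every water mouse in 4 nicotine mice and 3 of 6 in nicotine 2. The part of these cells in the respiratory chain values was not tested.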

How the data were processed

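Prostate RNA of 10 mice was amplified and labelled for Affymetrix whole-transcript arrays, per the labels' protocols. The authors deposited 1 table of log2 values for 35556 probe sets; how background and arrays were normalized is not stated in the labels or the file. The scale was read from the values (3.59 to 14.1, array medians 7.50 to 7.57). Numbers in the labels mark separate mice. Probe sets with 1 symbol in the platform annotation (21789; 1621 had several and 12146 were unnamed there) gave 19938 genes, the one with the highest mean being kept. Genes with a mean below 6.55 (the lowest 25%) were not tested. Nicotine was compared with water by limma 3.58.1 in R 4.3.3 (lmFit, eBayes, two-sided, Benjamini-Hochberg over 14953 genes, threshold 0.05), in 10 mice and in the 8 without arrays with Chga above 9. Array weights, other filters, scalings and probe set rules, a mouse number block, a seminal vesicle covariate and leaving out each mouse were tried. The steps were tested on simulated data. Members, lists and tests were chosen with earlier results of these data known. Values in every mouse are given for the 3 genes with the smallest p and the 1 with the largest difference per complex, for tissue isoforms, and for 6 genes picked later for their values, as the text says; the other genes are given by range and count.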

Additional observations from a re-analysis of the deposited data

Results flagged for a closer look

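Samples far from the others of their group were sought by Dixon's test in 80 sets of 5 mice (34 genes and 6 medians, in both groups), and 8 were found, where chance gives about 1 in 20. Single genes were Ndufb8, with nicotine 2 lowest at 9.49, Cox6a2, with nicotine 1 highest at 8.39, Cox7b, with nicotine 1 lowest at 11.9, and Cox8a, with water 5 lowest at 11.9. Water 4 was the highest water mouse in the median deviation of all 82 genes (0.058), of complex I (0.072) and of complex III (0.090), and water 1 the lowest in complex V (-0.026). Nicotine 3 gave none of these, but the test rests on the gap to the nearest value and can miss mice that lie together. Nicotine 1 and 3 lay together in Ndufa1 (8.39 and 8.16) and Ndufb7 (9.84 and 9.72). Over all tested genes the median correlation of nicotine 3 with the other arrays was 0.654, the lowest of all arrays, and that of nicotine 1 was 0.880.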

How the results depend on the processing

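Without nicotine 1 and 3 the median difference was 0.088 in complex I and 0.019 in complex II, and the differences of Sdhb (-0.013), Cox7b (0.0010) and Ndufa1 (0.18) turned sign. With quantile normalization the median was 0.10 over the 82 genes and 0.094 in complex V. The median over all tested genes also rose, from 0.0039 to 0.034, and 56.4% of all genes were positive. With array weights 1096 genes and 12 subunit genes passed (10 in the 8 mice), the complex III median was 0.032, and Ndufa1 was at 0.16. Of 34 named genes, 11 passed under array weights, where 7.33% of all tested genes did, and none of the 34 under the other alternatives. Many of the 34 were chosen by their p, size of difference or values in these data, so the count of 11 is not a separate result. Leaving out each mouse kept 0 genes and 0 subunit genes past the threshold in the 10 mice and gave medians of 0.05 to 0.07 over the 82 genes, -0.01 to 0.05 in complex I, 0.05 to 0.10 in complex II, 0.09 to 0.17 in complex III, 0.07 to 0.15 in complex IV and 0.04 to 0.07 in complex V. Differences near 0 turned sign in Cox4i2 (-0.0018 without water 1, up to 0.097), Cox8c (-0.00078 without water 4, up to 0.065), Cox7b (0.0079 without nicotine 1, down to -0.12) and Ndufa4 (-0.0032 without nicotine 5, up to 0.075). The causes were not tested. In the 8 mice, 90 genes passed without water 5, 20 without nicotine 4 and 2 with the seminal vesicle covariate, with 0 subunit genes among them.

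The mouse numbers did not pair the mice (correlations of same-numbered deviations from -0.13 to 0.16, and 1 of 10 mice correlating best with its own number). With the number as a replicate block 0 genes passed. At an unadjusted p under 0.05 there were then 9 subunit genes against 14, and 1005 of all tested genes against 1514. The 9 were all higher (11%, against 2.53% of all genes). Counting Ndufa4 and Ndufa4l2 with complex I, an alternative chosen after seeing the data, gave medians of 0.02 in complex I and 0.10 in complex IV.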
